A study of Arabidopsis thaliana with 6 samples.

Results

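Chloroplasts carry their own genome, but the proteins that start its transcription are made from nuclear genes. The 10 nuclear regulators described here were chosen by locus code: the sigma factor genes SIG1 to SIG6, the phage-type RNA polymerase genes RPOTp and RPOTmp, and the transcription factor genes GLK1 and GLK2. They are 10 of the 28141 features in the files, and all 10 passed the filter on low values that 19383 features passed. RNA was sequenced from whole Arabidopsis thaliana seedlings in the Col-0 background, 5 days old, kept on MS plates at 23 °C with 16 h of light and 8 h of dark. There were 3 libraries of fip37-4 LEC1:FIP37 and 3 of wild-type. FIP37 belongs to the writer complex of N6-methyladenosine, the methyl mark of mRNA. In the fip37-4 mutant a transgene drives FIP37 with the promoter of LEC1, which is active in the embryo, so that seedlings can be studied although strong fip37 mutants die as embryos. The labels do not say how many transgenic lines were used, or whether replicates came from separate sowings, so p-values speak only of the spread among these libraries, which may be technical.

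Plastid genes are read by a bacterial-type polymerase whose core is encoded in the plastid, and by phage-type polymerases encoded in the nucleus. Sigma factors bring the bacterial-type enzyme to its promoters, and in Arabidopsis each of the 6 has its own, partly overlapping, set of promoters. RPOTp works in plastids and RPOTmp in both plastids and mitochondria. GLK1 and GLK2 are nuclear, partly redundant transcription factors of the GARP family that switch on nuclear genes of chlorophyll synthesis and light harvesting, whose products act beside the proteins made in the chloroplast.

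Both GLK genes rose, and by nearly the same amount, whereas the other 8 moved by 0.35 or less on the log2 scale. GLK1 and GLK2 were 1.77 times as high in fip37-4 LEC1:FIP37 seedlings as in wild-type. SIG1, SIG5, RPOTp and RPOTmp rose by 0.26 to 0.35, and SIG6 fell by 0.17. The calls of SIG6 and RPOTmp held under 12 and 11 of 17 alternative settings. SIG2, SIG3 and SIG4 did not pass the test. Levels are FPKM, fragments scaled to transcript length and library depth, as the authors deposited them, summed over the transcripts of a locus. Log2 fold changes are of FPKM + 0.5, from limma, and a gene was called at a Benjamini-Hochberg adjusted p under 0.05 over all features tested. Of the 10 regulators 6 were called higher and 1 lower. Across all features 27.6% were called higher, 30.9% lower and 58.6% in either direction, so a call by itself does not set a regulator apart. The libraries of the groups did not overlap for 7 of the 10, against 65.9% of all features. The size of the GLK change was less common, since 7.5% of features were called and at least 1.5-fold higher, and 9.28% called and at least 1.5-fold lower.

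**Figure D1:**
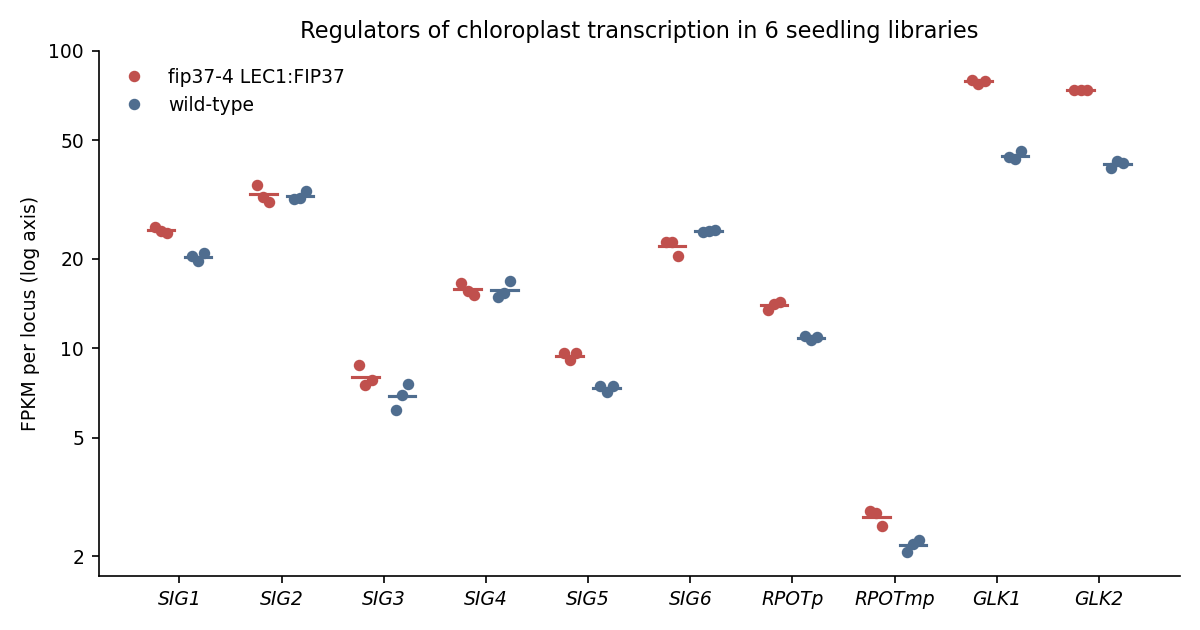
FPKM per locus, on a log axis, of the 10 regulators in the 3 fip37-4 LEC1:FIP37 libraries and the 3 wild-type libraries. Points are libraries in order of replicate number and lines are group means; GLK1 and GLK2 show the widest gap, with all fip37-4 LEC1:FIP37 values at 73.8 FPKM or more and all wild-type values at 45.9 FPKM or less.

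FIP37 (AT3G54170) itself was at 80.6, 65.0 and 67.5 FPKM in the libraries labelled fip37-4 LEC1:FIP37, against 8.99, 9.03 and 8.96 FPKM in wild-type, a log2 fold change of 2.91. The files do not separate the transgene's RNA from that of the endogenous gene, so this level does not by itself check the labels. The summed FPKM was 1241046 to 1350343 per fip37-4 LEC1:FIP37 library and 1160321 to 1213140 per wild-type library. Loci of the chloroplast genome held 56.0% to 59.2% of that sum in fip37-4 LEC1:FIP37 and 49.9% to 50.5% in wild-type. Nuclear loci held 38.1% to 39.3% in fip37-4 LEC1:FIP37 and 41.3% to 42.0% in wild-type. These are shares of a sum that was itself higher in fip37-4 LEC1:FIP37, so a smaller share is not a smaller nuclear total. The depth of each library is not given, but steps in the smallest values put 1 fragment on a transcript of 1500 nt at 0.0186 to 0.0268 FPKM in fip37-4 LEC1:FIP37 and at 0.0190 to 0.0223 FPKM in wild-type. At these steps each regulator rested on an estimated 269 fragments or more per library, RPOTmp on 269 to 431 and GLK1 on 2308 to 4673.

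The GLK genes are shown first because the comparison turns on them. GLK1 and GLK2 are related in sequence, and the longest identical run of bases in their transcripts is 24 nt. It lies in exon 2 of each, in the coding sequence, at chr2:8856404-8856427 for GLK1 and chr5:17799370-17799393 for GLK2, both on the plus strand of RefSeq's TAIR10.1. The run is given in capitals with 30 nt on either side of it, from the transcripts.
GLK1: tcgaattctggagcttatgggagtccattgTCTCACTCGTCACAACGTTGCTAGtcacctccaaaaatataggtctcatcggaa
GLK2: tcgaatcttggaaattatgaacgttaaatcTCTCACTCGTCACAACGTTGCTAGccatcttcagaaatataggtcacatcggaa
No other pair among the 10 shares more than 20 nt, the length of the run common to SIG1 and SIG4. RPOTp and RPOTmp share 17 nt.

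GLK1 (AT2G20570) was at 79.7, 77.4 and 79.4 FPKM in fip37-4 LEC1:FIP37, against 44.0, 43.3 and 45.9 FPKM in wild-type. Its log2 fold change was 0.82 ± 0.044 (SE, n = 3 per group; limma adjusted p = 3.17e-06), with a 95% interval of 0.72 to 0.92. GLK2 (AT5G44190) was at 74.0, 73.8 and 73.8 FPKM in fip37-4 LEC1:FIP37, against 40.4, 42.7 and 41.9 FPKM in wild-type. GLK2 changed on the log2 scale by 0.82 ± 0.042 (SE, n = 3 per group; limma adjusted p = 2.68e-06), with a 95% interval of 0.72 to 0.91. All 3 libraries of one group lay above all 3 of the other for each gene, and the gap was many times the spread within a group. Ranked by signed log2 fold change, GLK1 and GLK2 were above 96.2% and 96.1% of tested features, and ranked by size in either direction above 92.2% and 92.1%. Features with a mean level between 20 and 100 FPKM had a median log2 fold change of -0.23, and 20.9% of them were called higher and 56.6% lower, so both GLK genes moved against most genes of their level. After quantile normalization, which removes that trend with level, both were at 1.08.

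GLK1 made up 51.9%, 51.2% and 51.8% of the summed GLK level in fip37-4 LEC1:FIP37 and 52.1%, 50.4% and 52.3% in wild-type. The difference was 0.042 percentage points (exact two-sided permutation p = 1, n = 3 per group; the smallest p that 3 against 3 libraries allow is 0.1). With 1 library left out it ran from -0.57 to 0.39 percentage points, so it had no stable sign. Together the genes reached 153 ± 1.34 FPKM in fip37-4 LEC1:FIP37, against 86.1 ± 1.71 FPKM in wild-type (SD, n = 3 per group; exact permutation p = 0.1). GLK1 was the highest of the 10 regulators and GLK2 the next in both groups. The second annotated transcript of GLK1, AT2G20570.2, was listed at 0 in every library, so the values given are those of AT2G20570.1. A listed 0 in these files can be a failed estimate and does not show that the transcript was absent.

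The 250 bases before the annotated starts of both genes are given because the genes moved together. They run from chr2:8855052-8855301 for GLK1 and chr5:17798012-17798261 for GLK2, plus strand, RefSeq TAIR10.1. Capitals mark TATAAA or its reverse complement TTTATA.
GLK1: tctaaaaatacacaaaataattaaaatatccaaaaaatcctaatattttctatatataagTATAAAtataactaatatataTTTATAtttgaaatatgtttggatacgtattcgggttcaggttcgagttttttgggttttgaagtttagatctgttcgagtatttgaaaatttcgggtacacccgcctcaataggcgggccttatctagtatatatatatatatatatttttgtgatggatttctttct
GLK2: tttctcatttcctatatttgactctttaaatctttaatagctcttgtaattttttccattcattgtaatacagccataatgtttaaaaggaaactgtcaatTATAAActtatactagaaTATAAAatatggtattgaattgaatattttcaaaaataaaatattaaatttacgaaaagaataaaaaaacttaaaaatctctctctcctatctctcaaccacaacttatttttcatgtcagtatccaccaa
Both stretches are poor in G and C, at 26.4% for GLK1 and 23.6% for GLK2. TATAAA, read on both strands, occurs in 47.3% of 27443 protein-coding promoters of this length and in 7 of the 10 regulators. The G-box CACGTG, which bZIP and bHLH proteins of light signalling bind and which reads the same on both strands, occurs in 6.49% of promoters and in 0 of the 10. AGATTC, a sequence that GARP proteins can bind, occurs on either strand in 16.4% of promoters and in those of SIG5 and SIG6. AGATAA, which holds the core of GATA factor sites, occurs in 25.5% of promoters and in those of SIG2, SIG3 and GLK1. These matches describe the letters in the windows and nothing about binding.

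The sigma factors moved by small amounts in both directions. SIG5 (AT5G24120), which responds to light and stress and is needed for the blue-light promoter of psbD, was at 9.61, 9.10 and 9.62 FPKM in fip37-4 LEC1:FIP37, against 7.49, 7.14 and 7.47 FPKM in wild-type. Its log2 fold change was 0.34 ± 0.052 (SE, n = 3 per group; limma adjusted p = 0.000673). SIG1 (AT1G64860), whose protein is regulated by phosphorylation, was at 25.7, 24.7 and 24.3 FPKM in fip37-4 LEC1:FIP37, against 20.4, 19.7 and 20.9 FPKM in wild-type. The log2 fold change of SIG1 was 0.29 ± 0.046 (SE, n = 3 per group; limma adjusted p = 0.000827). Groups did not overlap for either gene, and both calls held under all 17 alternative settings.

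SIG6 (AT2G36990), which acts on many promoters early in seedling greening, was the regulator that fell. It was at 22.83, 22.79 and 20.37 FPKM in fip37-4 LEC1:FIP37, against 24.57, 24.72 and 24.95 FPKM in wild-type. The groups did not overlap, but replicate 3 of fip37-4 LEC1:FIP37 lay well below the other libraries of its group. The log2 fold change was -0.17 ± 0.054 (SE, n = 3 per group; limma adjusted p = 0.0264). The call was lost without fip37-4 LEC1:FIP37 replicate 3 (-0.11, limma adjusted p = 0.0805), without wild-type replicate 1, 2 or 3 (limma adjusted p = 0.0651, 0.0688 and 0.0749) and after quantile normalization (-0.0023, limma adjusted p = 0.976). Over the 17 alternatives the adjusted p of SIG6 ran from 0.0114 to 0.976. With a mean level between 20 and 100 FPKM, where the median feature was at -0.23, SIG6 fell by less than the median feature.

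SIG2 (AT1G08540), which is needed for transcription of several plastid tRNA genes, was the highest of the sigma factors. It was at 35.5, 32.1 and 31.0 FPKM in fip37-4 LEC1:FIP37, against 31.8, 32.0 and 33.8 FPKM in wild-type, and the groups overlapped. The log2 fold change of SIG2 was 0.014, with a 95% interval of -0.12 to 0.15 (limma adjusted p = 0.857), and it was called higher only after quantile normalization (0.20, limma adjusted p = 0.0391; 0.0391 to 0.984 over the alternatives). SIG4 (AT5G13730), linked to the plastid gene ndhF, was at 16.6, 15.6 and 15.1 FPKM in fip37-4 LEC1:FIP37, against 14.8, 15.4 and 16.8 FPKM in wild-type. SIG4 overlapped between the groups too, at a log2 fold change of 0.012 with a 95% interval of -0.13 to 0.15 (limma adjusted p = 0.878). For both genes the interval under this scaling takes in no change and ends at about 0.15.

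SIG3 (AT3G53920), linked to the plastid gene psbN, was at 8.80, 7.51 and 7.80 FPKM in fip37-4 LEC1:FIP37, against 6.18, 6.97 and 7.58 FPKM in wild-type. The lowest fip37-4 LEC1:FIP37 library was below the highest wild-type library. The log2 fold change was 0.21 ± 0.086 (SE, n = 3 per group; limma adjusted p = 0.0682), with a 95% interval of 0.0092 to 0.40. Without wild-type replicate 3 it was called higher (0.27, limma adjusted p = 0.0381; 0.0381 to 0.222 over the alternatives).

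**Figure D2:**
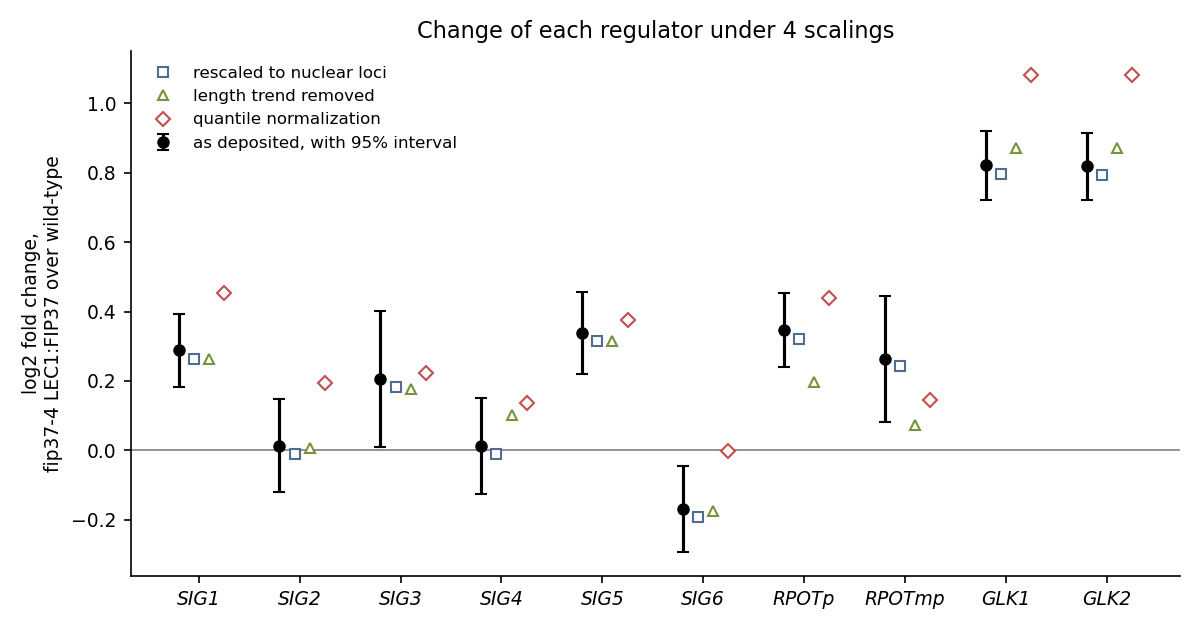
Log2 fold change of fip37-4 LEC1:FIP37 over wild-type for each regulator. Filled points with 95% intervals are the values as deposited, squares those rescaled to the sum of nuclear loci, triangles those after removal of the trend with transcript length and diamonds those after quantile normalization. GLK1 and GLK2 stay at 0.79 or more under each, while SIG6 reaches -0.0023 and SIG2 0.20 under quantile normalization.

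Summed over the 6 sigma factors, the level was 113 ± 5.46 FPKM in fip37-4 LEC1:FIP37 and 108 ± 3.44 FPKM in wild-type (SD, n = 3 per group; exact two-sided permutation p = 0.2). Within that sum the make-up shifted. SIG6 took 19.2%, 20.4% and 18.8% in fip37-4 LEC1:FIP37, against 23.3%, 23.3% and 22.4% in wild-type. SIG1 took 21.6%, 22.1% and 22.5% in fip37-4 LEC1:FIP37, against 19.4%, 18.6% and 18.8% in wild-type. SIG5 took 8.36% ± 0.454 in fip37-4 LEC1:FIP37 and 6.85% ± 0.231 in wild-type (SD, n = 3 per group). The groups did not overlap for the shares of SIG1, SIG2, SIG4, SIG5 and SIG6. Each had an exact permutation p of 0.1, the smallest possible, and an adjusted p of 0.16 over the 8 shares tested. None of these shares can pass a threshold of 0.05 with 3 libraries a group. By level, 65.9% of all features did not overlap between the groups. Shares of one sum depend on each other, and by level SIG2 and SIG4 overlapped.

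The order of SIG1 and SIG6 differed between the groups. In fip37-4 LEC1:FIP37 SIG1 was above SIG6 in each library, and in wild-type SIG6 was above SIG1 in each. The log2 ratio of SIG1 to SIG6, chosen after the values were seen, was 0.17, 0.12 and 0.26 in fip37-4 LEC1:FIP37 and -0.27, -0.33 and -0.25 in wild-type. The difference was 0.47, and with 1 library left out it ran from 0.43 to 0.50. SIG1 rose and SIG6 fell, each without overlap, so this choice fixed the exact two-sided permutation p at 0.1. A ratio within a library stays the same when all values of a library are multiplied by a common factor. Quantile normalization can change it, and there the log2 fold changes of SIG1 and SIG6 were 0.45 and -0.0023. From high to low the other sigma factors kept the order SIG2, SIG4, SIG5 and SIG3 in both groups, and SIG5 and SIG3 overlapped in wild-type.

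**Figure D3:**
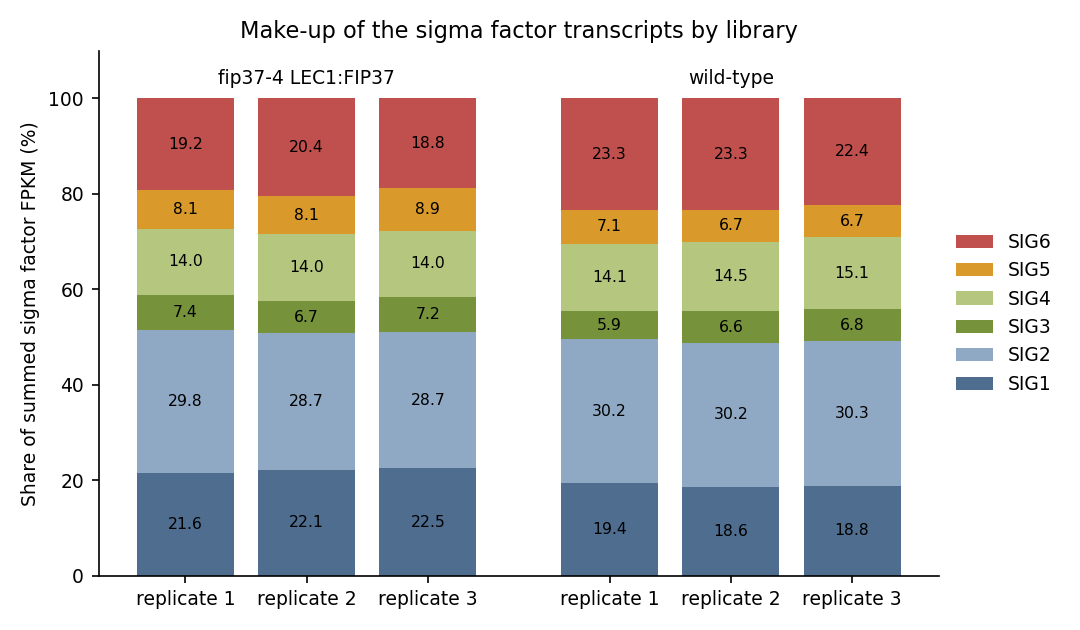
Share of each sigma factor gene in the summed FPKM of SIG1 to SIG6, in percent, 1 bar per library. The SIG6 share is 18.8% to 20.4% in fip37-4 LEC1:FIP37 and 22.4% to 23.3% in wild-type, and the SIG1 share 21.6% to 22.5% and 18.6% to 19.4%.

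Both phage-type polymerase genes rose. RPOTp (AT2G24120), the plastid enzyme, was at 13.5, 14.0 and 14.3 FPKM in fip37-4 LEC1:FIP37, against 11.0, 10.7 and 10.9 FPKM in wild-type. RPOTp had a log2 fold change of 0.35 ± 0.047 (SE, n = 3 per group; limma adjusted p = 0.000318), without overlap between the groups. RPOTmp (AT5G15700), the enzyme of both organelles, was the lowest of the 10 regulators, at 2.835, 2.790 and 2.523 FPKM in fip37-4 LEC1:FIP37, against 2.0661, 2.2003 and 2.2749 FPKM in wild-type. RPOTmp had a log2 fold change of 0.26 ± 0.079 (SE, n = 3 per group; limma adjusted p = 0.02), again without overlap.

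The polymerase genes have the longest transcripts of the 10, 3695 nt for RPOTp and 4300 nt for RPOTmp in TAIR10.1, and log2 fold changes in these libraries rose with transcript length. The median was -0.21 over features of at most 1000 nt and 0.18 over those longer than 3000 nt. After removal of that trend RPOTp was at 0.20 and still called (limma adjusted p = 0.00739), whereas RPOTmp was at 0.073 without a call (limma adjusted p = 0.461). RPOTmp also lost its call when values were rescaled to nuclear loci (0.24, limma adjusted p = 0.0555), after quantile normalization (0.15, limma adjusted p = 0.152), and without fip37-4 LEC1:FIP37 replicate 1 or 2 or wild-type replicate 1 (limma adjusted p = 0.0545, 0.0608 and 0.0691), with a range of 0.0171 to 0.461 over the alternatives. RPOTp made up 83.7% ± 1.20 of the summed RPOTp and RPOTmp level in fip37-4 LEC1:FIP37 and 83.3% ± 0.80 in wild-type (SD, n = 3 per group; exact permutation p = 0.7). RPOTm (AT1G68990), the mitochondrial enzyme and not among the 10, was at 5.33 ± 0.162 FPKM in fip37-4 LEC1:FIP37 and 3.96 ± 0.239 FPKM in wild-type. Its log2 fold change was 0.39 as deposited (limma adjusted p = 0.00121). After removal of the trend with length it was 0.24 (limma adjusted p = 0.0148).

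Of the 10 loci, 4 had more than 1 transcript in the files. A minor RPOTp transcript, AT2G24120.2, was at 0.616, 0.470 and 0.884 FPKM in fip37-4 LEC1:FIP37, against 0.146, 0.372 and 0.140 FPKM in wild-type. The groups did not overlap, but the transcript was below the filter and was not tested. It held 3.35% to 6.18% of the locus in fip37-4 LEC1:FIP37 and 1.29% to 3.48% in wild-type. The minor SIG1 transcript, AT1G64860.2, was at 2.41, 1.23 and 3.31 FPKM in fip37-4 LEC1:FIP37, against 1.76, 2.14 and 2.44 FPKM in wild-type (limma adjusted p = 0.915). It overlapped between the groups, so the rise of SIG1 was that of AT1G64860.1 (log2 fold change 0.30, limma adjusted p = 0.00449; 46.4% of transcripts were called in that fit). The exons of SIG4 overlap those of AT5G13720, on the opposite strand, by 201 nt in TAIR10.1. The libraries kept the strand, but the strand setting of the counting is not given, so reads of this overlap are uncertain. AT5G13720 was at 11.49, 10.16 and 10.01 FPKM in fip37-4 LEC1:FIP37, against 11.59, 10.82 and 11.22 FPKM in wild-type (limma adjusted p = 0.278).

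Of 19 genes known to be activated by GLK proteins, all 19 were tested and called higher in the values as deposited. Of all features 27.6% were called higher as deposited. After quantile normalization 12 of the 19 were called higher and 1 lower, where 10674 of 19383 features were called in either direction. The median log2 fold change of the 19 was 0.60 as deposited, where all features had -0.0019. GUN4 (AT3G59400), a cofactor of magnesium chelatase, was at 199 ± 4.997 FPKM in fip37-4 LEC1:FIP37 and 98.1 ± 1.31 FPKM in wild-type (SD, n = 3 per group; log2 fold change 1.02). CAO (AT1G44446), which makes chlorophyll b, was at 125 ± 0.912 FPKM in fip37-4 LEC1:FIP37 and 64.6 ± 0.736 FPKM in wild-type, a log2 fold change of 0.95. The light-harvesting genes LHCB2.2 (AT2G05070) and LHCB2.1 (AT2G05100) had log2 fold changes of 0.95 and 0.84, but they are near-identical copies among which reads may be split. After quantile normalization GUN4 and CAO were at 1.26 and 1.22. The 7 genes not called higher there were LHCA1 to LHCA4, LHCB4.1, LHCB5 and LHCB6. Like all 11 light-harvesting genes of the list, they were above 1000 FPKM in both groups. Of the 96 features with a mean level above 1000 FPKM, 75% were called higher and 5.21% lower as deposited, with a median of 0.51. LHCB4.1 was the one called lower after quantile normalization, at -0.36. CHLH (AT5G13630), at 0.27 as deposited, lost its call after removal of the trend with length (0.056, limma adjusted p = 0.313).

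The transcripts of proteins that bind PEP, the bacterial-type plastid-encoded polymerase, changed in both directions. Of the 12 PEP-associated protein genes, 8 were called lower and 3 higher as deposited, with a median of -0.21, and 4 lower and 3 higher after quantile normalization, where PAP6 changed sign. Of all features 30.9% were called lower and 27.6% higher. The lower share was 36.2% of features with a mean level from 5 to 20 FPKM and 56.6% of those from 20 to 100 FPKM, the ranges that hold these genes. PAP4 (AT5G23310), an iron superoxide dismutase also called FSD3, was at 13.5 ± 0.513 FPKM in fip37-4 LEC1:FIP37 and 24.8 ± 0.684 FPKM in wild-type (SD, n = 3 per group; log2 fold change -0.85). PAP8 (AT1G21600) and the thioredoxin gene PAP10 (AT3G06730) had log2 fold changes of -0.66 and -0.52. PAP12 (AT5G24314) was at -0.42, and it had no call after quantile normalization (-0.099, limma adjusted p = 0.211). The 3 that rose were PAP1, PAP3 and PAP7, at 0.22, 0.27 and 0.34. After removal of the trend with length 6 were lower and 3 higher.

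Of 15 other plastid transcription and nucleoid genes, 7 were called lower and 3 higher, with a median of -0.19, beside the 30.9% and 27.6% of all features. After quantile normalization 5 were lower and 3 higher, since GUN1 and MTERF4 lost their calls (limma adjusted p = 0.431 and 0.159). WHY3 (AT2G02740) and WHY1 (AT1G14410), single-stranded DNA-binding proteins of the nucleoid, fell most. WHY3 was at 5.99 ± 0.483 FPKM in fip37-4 LEC1:FIP37 and 14.2 ± 0.311 FPKM in wild-type, and WHY1 at 7.57 ± 0.252 FPKM in fip37-4 LEC1:FIP37 and 14.3 ± 0.330 FPKM in wild-type (SD, n = 3 per group). Their log2 fold changes were -1.18 and -0.87 (limma adjusted p = 3.37e-06 and 4.09e-06), and -1.003 and -0.791 after removal of the trend with length. RCB (AT4G28590) and NCP (AT2G31840), related proteins of early chloroplast biogenesis, moved apart, at -0.65 and 0.61. The sigma factor binding protein genes SIB1 (AT3G56710) and SIB2 (AT2G41180) were at 1.51 ± 0.656 and 5.30 ± 0.404 FPKM in fip37-4 LEC1:FIP37 and at 1.10 ± 0.229 and 6.85 ± 0.729 FPKM in wild-type. SIB2 was called lower (log2 fold change -0.34), a call lost after removal of the trend with length (-0.11, limma adjusted p = 0.283), and SIB1 was not called (0.29, limma adjusted p = 0.306).

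**Figure D4:**
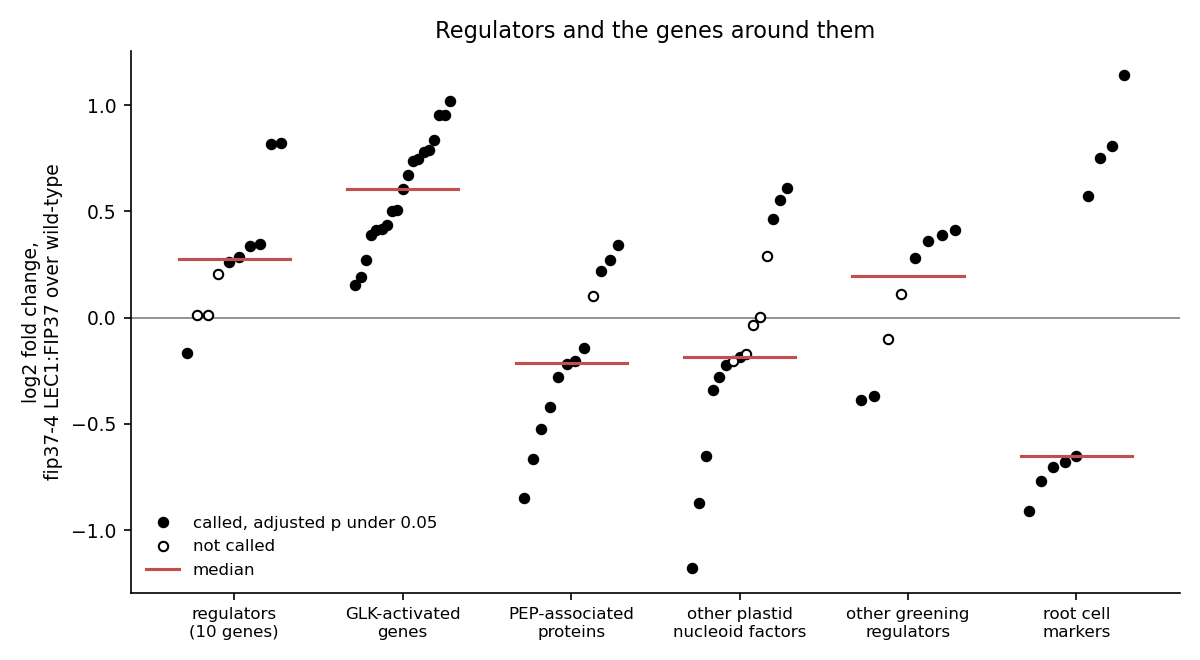
Log2 fold change of fip37-4 LEC1:FIP37 over wild-type for each tested gene of 6 lists, sorted within a list. Filled points were called at an adjusted p under 0.05, open points were not, and red lines are medians. As deposited, all 19 GLK-activated genes lie above 0, while 8 of 12 PEP-associated protein genes are called lower. Of all features 27.6% were called higher and 30.9% lower.

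A list of other nuclear regulators, mostly of greening, was mixed, with 4 of 8 tested genes higher and 2 lower and a median of 0.20. It includes RPOTm, and without that gene 3 of 7 were higher and 2 lower, with a median of 0.11. Of all features 27.6% were called higher and 30.9% lower. The GATA factor gene GNC (AT5G56860) was at 9.17 ± 1.54 FPKM in fip37-4 LEC1:FIP37 and 6.70 ± 0.0513 FPKM in wild-type (SD, n = 3 per group; log2 fold change 0.41, limma adjusted p = 0.00761). The B-box gene BBX22 (AT1G78600) and the phytochrome-interacting factor gene PIF3 (AT1G09530) had log2 fold changes of -0.39 and -0.37. With each transcript tested on its own, the PIF3 transcript of highest mean level was at -0.15 without a call (limma adjusted p = 0.392). Taking that transcript for each gene, 2 genes of the list were called higher and 1 lower. Of 64 tested loci of the chloroplast genome itself, 57 were called higher and 0 lower, against 27.6% and 30.9% of all features. The median of these loci was 0.67. After quantile normalization 32 of them were called higher and 1 lower, where 10674 of 19383 features were called in either direction.

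In whole seedlings a change in the share of green cells and a change in RNA per cell cannot be told apart. The 11 light-harvesting genes of the GLK list summed to 33068, 38592 and 37688 FPKM in fip37-4 LEC1:FIP37, against 24827, 23894 and 25393 FPKM in wild-type. Markers of root cells, whose plastids are not green, went both ways, with 5 of the 9 that passed the filter lower and 4 higher. Of all features 30.9% were called lower and 27.6% higher. The 12 root markers summed to 49.2 to 51.1 FPKM in fip37-4 LEC1:FIP37 and 49.9 to 50.2 FPKM in wild-type, a total made of opposite shifts, and only the root cap gene SMB (AT1G79580) was listed at 0, in 2 fip37-4 LEC1:FIP37 libraries. The 5 Casparian strip genes of the endodermis, among them CASP1 (AT2G36100) and CASP4 (AT5G06200), summed to 17.8 to 19.7 FPKM in fip37-4 LEC1:FIP37 and 32.1 to 33.5 FPKM in wild-type, and CASP4 and CASP1 were at -0.91 and -0.77. The other 7 markers summed to 31.0 to 33.3 FPKM in fip37-4 LEC1:FIP37 and 16.5 to 17.8 FPKM in wild-type. Most of that sum was PHO1 (AT3G23430), at a mean of 18.0 FPKM in fip37-4 LEC1:FIP37 and 10.5 FPKM in wild-type. SHR was next, at 8.17 FPKM in fip37-4 LEC1:FIP37 and 3.43 FPKM in wild-type. Whether the RNA of PHO1 and SHR came only from roots in these whole seedlings was not tested. SHR (AT4G37650), a regulator made in the root stele, and the root hair expansin gene EXPA7 (AT1G12560) had log2 fold changes of 1.14 and 0.81. The part of these differences in the levels of the GLK and sigma factor genes was not tested.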

How the data were processed

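RNA was depleted of ribosomal RNA and made into strand-specific libraries, per the labels' protocols. The deposited files hold FPKM per transcript, which the authors made on the TAIR10 build with TopHat2 2.0.9 and Cufflinks 2.1.1, per the submitters' processing notes; that the unit is FPKM follows from those tools and from the values. No count model was run, because FPKM are not counts, and depth was estimated only from steps of the smallest values. Values of the 36104 transcripts were summed per locus. Features that reached 0.5 FPKM in 3 or more libraries were compared on log2(FPKM + 0.5), which understates the change of low genes, with limma 3.58.1 (trend, robust empirical Bayes, genotype only) in R 4.3.3, after a test on simulated data. Ratios and shares were compared with exact permutation tests.

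The 10 regulators and the lists were chosen with earlier results of these data known. All 10 are named, and of each list up to 4 called genes with the largest absolute log2 fold change. SIB1, SIB2, the other PAP genes, GUN1, MTERF4, PHO1, CHLH and further light-harvesting genes were named after their values were seen. Planned lists of chloroplast and mitochondrial genes by polymerase are not reported, because the reference table does not pair those locus codes with names. Sequences, transcript lengths and symbols came from RefSeq's TAIR10.1 by locus code; the files hold no coordinates. Alternatives covered pseudocount, filter, empirical Bayes, 3 scalings, length, single transcripts, a replicate block and leaving out each library. The labels give same-numbered libraries a common number and do not say what else they shared.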

Additional observations from a re-analysis of the deposited data

How the results depend on the processing

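Under the 17 alternatives tried, GLK1, GLK2, SIG1, SIG5 and RPOTp kept their direction and call. The count of regulators called lower, 1, was 0 after quantile normalization and 0 to 1 with 1 library left out. After quantile normalization 4 PEP-associated protein genes were lower and 3 higher, 12 GLK-activated genes higher and 1 lower, and 32 chloroplast loci higher and 1 lower. Of 19383 features 10674 were called there in either direction. Of single genes, PAP6 (0.024), GUN1 (0.0399), LHCA3 (-0.0326), LHCA4 (-0.0354), LHCB4.1 (-0.36), LHCB5 (-0.0293) and LHCB6 (-0.0669) changed direction there. When transcripts were tested singly, with the one of highest mean level taken for each gene, 2 genes of the greening list were higher and 1 lower. The transcripts so taken for CGA1, PIF1 and PIF3 had no call. With 1 library left out, the difference in the RPOTp share ran from -0.25 to 0.93 percentage points and that of the GLK1 share from -0.57 to 0.39. The cause of these shifts was not tested.

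The replicate block gave 6 regulators higher and 1 lower, and 17 of 19 GLK-activated genes higher. It called 10879 of 19383 features in either direction. Deviations of same-numbered libraries correlated at -0.028, -0.049 and -0.057, so no pairing by number was seen in these values. Whether same-numbered libraries shared a sowing was not tested. The length correction could not be applied to chloroplast loci, which have no length in the reference table. With 3 libraries a group, exact tests of shares and ratios cannot go below p = 0.1.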
